A study of Mus musculus with 12 samples.

Results

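The 37 genes described here are interferon-induced genes and genes of class I antigen presentation, taken by symbol from the 24539 genes counted in mouse soleus, a calf muscle rich in slow fibres. They comprise 4 transcription factors of the interferon response, 3 sensors of foreign nucleic acid, 14 antiviral effectors, 2 regulators, 9 interferon-inducible GTPases and 5 genes of class I antigen presentation. RNA was sequenced in 12 libraries from C57BL/6 mice on a chow diet, 3 in each of 4 groups. Wild type (WT) mice carried floxed Dnmt3a alleles, and knockout (KO) mice, named MCK-Dnmt3a KO in the labels, lacked this de novo DNA methyltransferase in muscle; each genotype was studied sedentary and after exercise. MCK usually stands for muscle creatine kinase, whose promoter drives deletion in striated muscle, so that blood vessel, connective tissue and immune cells of the soleus would keep the gene. Neither the exercise protocol nor the time from exercise to dissection nor the age of the mice is stated in the sources. The study text gives 3 mice per group, and p-values measure the spread between these libraries. Libraries are called a, b and c within a group as names only; the names pair nothing across groups.

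Interferons are secreted proteins that bind receptors on nearly every cell type. Through JAK kinases, type I interferons activate transcription factors that bind the interferon-stimulated response element (ISRE), whereas interferon gamma acts at gamma-activated sites (GAS). The induced genes include nucleic acid sensors, antiviral effectors, GTPases that attack the vacuoles of intracellular microbes, and the machinery that loads peptides onto class I molecules for display to CD8 T cells. A resting level of these genes is kept in healthy tissue, in muscle fibres as well as in vessel and immune cells.

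The ISRE core, searched as GAAA, any 2 bases and GAAA again, on both strands, and the GAS core, searched as TTCNNNGAA (a pattern that reads as itself on the other strand), were looked for in the RefSeq promoter windows of GRCm38.p6, from 250 bases before to 50 bases after each gene's start. Of the 37 members, 25 had a window; the others were Zbp1, Oas2, Mx1, Mx2, Rtp4, Usp18, Parp14, Gbp4, Gbp6, Gbp9, Iigp1 and Tap2. The ISRE core was present in 15 of these 25 (60.0%), against 3.99% of all 27025 genes with a window. The GAS core was present in 7 of 25 (28.0%), against 9.55% of all genes. The following stretches, each read 5′ to 3′ on the strand of its gene, are shown because they belong to 6 members that fell with exercise and, last, to 3 members with ISRE cores that did not pass the test. Capitals mark the ISRE core, or the GAS core for Irf1, and an ISRE core on the other strand reads as TTTC, any 2 bases and TTTC. The Igtp stretch also holds a GAS core, 45 bases before the start, which is left in lower case.
B2m: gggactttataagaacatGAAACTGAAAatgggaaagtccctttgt
Gbp7: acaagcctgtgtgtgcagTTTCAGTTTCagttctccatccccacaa
Igtp: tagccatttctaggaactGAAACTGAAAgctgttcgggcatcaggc
Ddx58: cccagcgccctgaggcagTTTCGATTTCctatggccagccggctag
Stat2: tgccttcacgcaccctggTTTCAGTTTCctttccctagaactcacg
Irf1: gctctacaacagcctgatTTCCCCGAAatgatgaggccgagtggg
Isg15: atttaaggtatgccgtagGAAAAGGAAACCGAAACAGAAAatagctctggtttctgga
Ifit1: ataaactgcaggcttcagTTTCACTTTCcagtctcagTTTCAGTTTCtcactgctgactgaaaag
Irgm1: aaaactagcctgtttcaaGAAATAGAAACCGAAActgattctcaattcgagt

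These stretches lie at chr2:122147530-122147575 on the plus strand (B2m), chr3:142530265-142530310 plus (Gbp7), chr11:58199504-58199549 plus (Igtp), chr4:40239796-40239841 minus (Ddx58), chr10:128270258-128270303 plus (Stat2), chr11:53769906-53769950 plus (Irf1), chr4:156200857-156200914 minus (Isg15), chr19:34640767-34640831 plus (Ifit1) and chr11:48871417-48871468 minus (Irgm1), in GRCm38 (mm10). Isg15 carried 3 overlapping ISRE cores, Irgm1 carried 2 that overlap and Ifit1 carried 2 apart. An overlap of an ISRE core with a GAS core occurred in 1 member, Bst2. An ISRE core was present in 5 of 8 members that fell with exercise (62.5%) and in 10 of 17 other members (58.8%), and in 26 of 81 further genes of the pathway (32.1%). A GAS core was present in 3 of the 8 (37.5%), 4 of the 17 (23.5%) and 17 of the 81 (21.0%). A match describes these letters only and was not tested as a binding site.

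Total counts ran from 13329547 to 15480960 per library. Dnmt3a stood at 113 to 179.7 CPM (counts relative to the scaled library total) in WT and at 48.6 to 60.5 CPM in KO libraries. The liver transcript Alb was high in 3 libraries, at 329 CPM (KO sedentary b), 227 (WT exercise b) and 178 (WT exercise c), and reached at most 20.6 in the remaining 9. The clock output gene Dbp split the libraries of all groups: it was at 136 to 266 CPM in KO exercise a, KO sedentary a, WT exercise a, WT sedentary b and WT sedentary c and at 18.3 to 25.8 in the other 7. The column names of 2 libraries, a of exercised KO and a of exercised WT, list 2 animals each, with no statement on pooling. All 8 muscle fibre markers were abundant, with sums of 80562 to 116282 CPM.

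Relative to the length of annotated exons, the members covered a wide range of levels. The lengths take in the exons of all annotated transcripts of a gene, so the order of levels depends in part on the annotation. As CPM per kilobase of exons (lengths from GENCODE M21), B2m, the shared light chain of class I molecules, had a mean level of 219.7 ± 30.3 (SD, n = 12 libraries). The class I heavy chains H2-D1 and H2-K1 followed at 40.3 ± 9.37 and 23.9 ± 5.59 CPM per kilobase. Bst2, a membrane protein that tethers virus particles, stood at 9.20, Ifi35 at 7.99 and Mx1, the lowest member, at 0.0705 CPM per kilobase. Every library of B2m lay above every one of H2-D1, and likewise for H2-K1 above Bst2; all other neighbours in the order of levels overlapped across libraries. Mx1 (49 counts in all libraries together) and Zbp1 (94) did not pass the filter on low counts, which left 35 members among 13886 tested genes.

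Members of the interferon response were lower after exercise in both genotypes. In the difference between exercised and sedentary libraries averaged over WT and KO, 34 of 35 tested members were lower, with a median log2 change of −0.43, whereas 6933 of all 13886 tested genes were lower and their median was 0.00034. At an adjusted p under 0.05 in edgeR's quasi-likelihood test, 11 members fell: Stat2, Irf1, Ddx58, Parp14, Gbp4, Gbp7, Igtp, Iigp1, Tap1, B2m and H2-K1. None of the 35 rose by edgeR, DESeq2 or limma-voom. At an unadjusted p under 0.05 in edgeR, 24 members differed, against 22.8% of all genes. The 11 make up 31.4% of the tested members, against 1.68% of all tested genes that fell by the same rule. DESeq2 called 14 members lower (4.72% of all genes), adding Oasl2, Gbp9 and H2-D1. Limma-voom called 8 lower (1.51% of all genes), and these 8 were lower by all 3 tools: Ddx58, Parp14, Gbp4, Gbp7, Iigp1, Tap1, B2m and H2-K1. In bulk tissue, fewer cells of a type and less RNA per cell cannot be told apart.

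**Figure D1:**
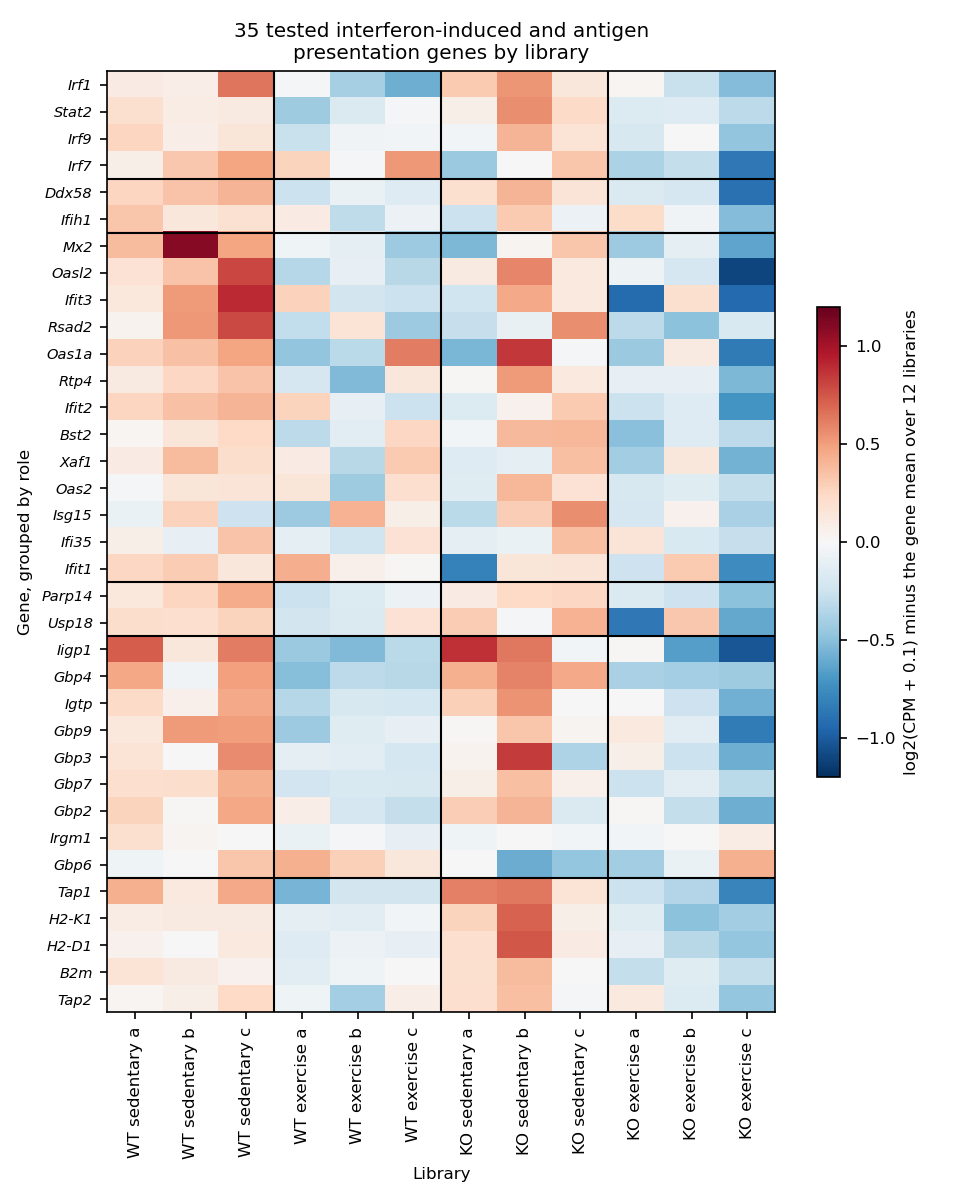
Rows are the 35 tested members grouped by role (transcription factors, sensors, antiviral effectors, regulators, GTPases, class I antigen presentation, separated by black lines), columns the 12 libraries, and colour the log2(CPM + 0.1) of a gene minus its mean over the libraries. The sedentary columns are mostly red and the exercised columns mostly blue. On a different scale, log2 CPM with a prior count of 2, library medians over the members were 0.018 to 0.41 in the 6 sedentary libraries. In the 6 exercised libraries they were −0.52 to −0.074. On that scale KO sedentary a was near even, with 20 of 35 members above their mean.

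For 12 members, all 6 exercised libraries lay below all 6 sedentary ones: the genes that fell other than Iigp1, plus Oasl2 and H2-D1. These are 34.3% of the tested members, against 2.16% of all tested genes. How many members fell depended on single libraries. The share of all tested genes that fell moved as well, from 0.191% to 3.87% over the 12 fits that each left out 1 library. Of these fits, the fewest called members came without WT sedentary c, with Gbp4 alone (0.191% of all genes fell). Next was the fit without KO sedentary b, with Gbp4 and Tap1 (0.307% of all genes). The count was 3 without WT exercise a or WT exercise c, 4 without KO exercise c or WT sedentary a, 5 without WT sedentary b or KO sedentary a, 7 without KO exercise a or WT exercise b, and 10 without KO exercise b or KO sedentary c. Without the 3 libraries with high Alb, only WT exercise a remained of exercised WT, and the members' median log2 change was −0.38. Without the libraries of 2 animal numbers, 5 members were called (0.553% of all genes fell). In each of these fits, 33 to 35 of the 35 or 36 tested members were lower.

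Among the transcription factors, Stat2 and Irf1 fell, and Irf9 and Irf7 did not pass the test. Stat2, a subunit of the complex that binds the ISRE, lies at chr10:128270559-128292849. It stood at 15.3, 14.3 and 14.5 CPM in WT sedentary a, b and c and at 9.98, 11.9 and 13.2 after exercise. In KO libraries it stood at 14.1, 19.9 and 15.7 CPM sedentary and 11.9, 12.1 and 10.8 after exercise. The highest exercised library lay below the lowest sedentary one, and the averaged log2 change was −0.42 (SE 0.10002, edgeR adjusted p = 0.0492). Irf1, a factor induced strongly by interferon gamma that activates class I genes, lies at chr11:53770014-53778374, and its exons overlap those of Gm17334. It stood at 14.2, 14.03 and 20.8 CPM in sedentary WT, 13.04, 10.01 and 8.79 in exercised WT, 16.5, 19.2 and 14.6 in sedentary KO and 13.5, 10.98 and 9.20 in exercised KO libraries. Exercised and sedentary libraries did not overlap, with a log2 change of −0.60 (SE 0.142, edgeR adjusted p = 0.0485). Irf9, the DNA-binding partner of STAT2, had a log2 change of −0.33 (edgeR adjusted p = 0.09996), and Irf7, which amplifies type I interferon production, −0.26 (adjusted p = 0.352). The summed level of the 4 factors was 48.9 to 63.9 CPM in sedentary libraries and 33.5 to 45.2 CPM after exercise.

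Of the sensors, Ddx58, which encodes the cytosolic RNA sensor RIG-I, fell. It lies at chr4:40203773-40239828. It stood at 14.7, 15.6 and 16.3 CPM in sedentary WT and 10.2, 11.6 and 11.002 in exercised WT libraries. In KO libraries it stood at 14.1, 16.3 and 13.7 CPM sedentary and 10.8, 10.7 and 6.54 after exercise, with KO exercise c the lowest of all. The levels did not overlap, and the averaged log2 change was −0.58 (SE 0.117, edgeR adjusted p = 0.0302). Ifih1, the related sensor MDA5 of long double-stranded RNA, had a log2 change of −0.20 (adjusted p = 0.422, 95% interval −0.52 to 0.11). Zbp1, a sensor of Z-form nucleic acid, was under the filter.

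Of the 14 antiviral effectors, 13 were tested and all 13 were lower on average, but none passed the threshold in edgeR. In edgeR 7 of them had an unadjusted p under 0.05 (22.8% of all genes did), while DESeq2 called 1 (Oasl2) and limma-voom 0. The median log2 change was −0.40, from −0.72 (Mx2) to −0.055 (Ifit1). Oasl2, an antiviral member of the oligoadenylate synthetase family, was closest to the threshold: its sedentary libraries ran from 7.92 to 12.9 CPM and its exercised ones from 3.38 to 7.04, with a log2 change of −0.70 (SE 0.177, edgeR adjusted p = 0.0617). The others with an unadjusted p under 0.05 were Rtp4, Bst2, Rsad2, Ifit2, Ifit3 and Mx2. Rsad2, which encodes viperin, an enzyme that makes a chain-terminating nucleotide, was at 7.73 to 16.3 CPM in sedentary libraries and 6.67 to 10.5 after exercise, a log2 change of −0.54 (edgeR adjusted p = 0.11045). Bst2 was at 7.98 to 10.8 CPM sedentary and 5.73 to 9.69 exercised, a log2 change of −0.39 (adjusted p = 0.1101). Rtp4 was at 8.17 to 11.5 CPM sedentary and 5.54 to 8.86 exercised, a log2 change of −0.44 (adjusted p = 0.106). For each of these 3 the ranges of the conditions overlapped. The exons of Rtp4 overlap those of Gm45338. Oas1a, Oas2 and Xaf1 had log2 changes of −0.51, −0.24 and −0.25, each with a 95% interval that included 0. Ifi35, the effector of highest mean CPM, stood at 14.4, 12.8 and 17.3 CPM in sedentary WT, 12.6, 11.6 and 15.4 in exercised WT, 12.6, 12.9 and 17.5 in sedentary KO and 15.2, 12.02 and 11.3 in exercised KO libraries, so that the groups overlapped. Isg15, a ubiquitin-like modifier and a classic type I interferon target, stood at 1.05 to 2.17 CPM over all libraries. Its log2 change was −0.17 (edgeR adjusted p = 0.689), with a 95% interval of −0.68 to 0.34. Ifit1, which binds foreign RNA ends, had −0.055 (adjusted p = 0.903, 95% interval −0.51 to 0.41). These are wide intervals: Isg15 had 267 and Ifit1 684 counts over the 12 libraries.

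Parp14, an ADP-ribosyltransferase that acts in macrophage and interferon signalling, fell, and Usp18, which blocks the type I interferon receptor, did not pass the test. Parp14 lies at chr16:35832874-35871544. It stood at 20.3, 22.3 and 25.4 CPM in sedentary WT, 15.5, 16.6 and 17.7 in exercised WT, 19.9, 22.003 and 22.1 in sedentary KO and 16.4, 15.6 and 13.2 in exercised KO libraries. Sedentary and exercised libraries were apart, with a log2 change of −0.48 (SE 0.0825, edgeR adjusted p = 0.0175). Usp18 had a log2 change of −0.43 (adjusted p = 0.273), at 0.898 to 2.31 CPM.

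The GTPases held the 2 largest changes among the called members, in Iigp1 and Gbp4. Of 9 tested, Gbp4, Gbp7, Igtp and Iigp1 fell, and Gbp6 was the 1 member of the whole set with a positive change. The guanylate-binding proteins (Gbp) and the immunity-related GTPases (Igtp, Iigp1, Irgm1) act on the vacuoles and membranes of intracellular pathogens. Gbp4, at chr5:105115767-105139586, stood at 16.995, 11.99 and 17.4 CPM in sedentary WT and 8.61, 9.88 and 9.76 in exercised WT libraries. In KO libraries it stood at 16.7, 18.7 and 16.995 CPM sedentary and 9.39, 9.28 and 9.13 after exercise. Each exercised library lay below each sedentary one, and the exercised level was 0.569 times the sedentary (log2 change −0.81, SE 0.0996, edgeR adjusted p = 0.00748). The exons of Gbp4 overlap those of Gbp8 and Gbp9, so its reads may be shared. Iigp1, at chr18:60376027-60392634, stood at 23.7, 15.7 and 21.9 CPM in sedentary WT, 10.5, 9.88 and 11.4 in exercised WT, 26.3, 22.1 and 13.96 in sedentary KO and 14.4, 9.02 and 6.97 in exercised KO libraries. KO sedentary c (13.96) lay just below KO exercise a (14.4), and the log2 change was −0.99 (SE 0.197, edgeR adjusted p = 0.0334), or 0.503 times the sedentary level.

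Gbp7 and Igtp fell by less. Gbp7, at chr3:142530342-142550149, stood at 15.5, 15.7 and 18.1 CPM in sedentary WT and at 11.5, 11.8 and 11.8 in exercised WT libraries. In KO it stood at 14.1, 17.3 and 14.03 CPM sedentary and 11.3, 12.3 and 10.8 after exercise, without overlap. Its log2 change was −0.45 (SE 0.0823, edgeR adjusted p = 0.0234). Igtp, at chr11:58199556-58207591, has exons that overlap those of Irgm2. It stood at 9.63, 8.56 and 11.3 CPM in sedentary WT, 6.44, 7.13 and 7.06 in exercised WT, 9.995, 11.9 and 8.23 in sedentary KO and 8.15, 6.86 and 5.46 in exercised KO libraries. Its log2 change was −0.53 (SE 0.127, edgeR adjusted p = 0.0493). Gbp2, Gbp3 and Gbp9 were lower without passing the threshold (log2 −0.43, −0.46 and −0.49). Irgm1, the GTPase of highest mean CPM, stood at 28.3, 25.4 and 24.8 CPM in sedentary WT, 23.5, 24.6 and 23.1 in exercised WT, 23.95, 24.7 and 24.2 in sedentary KO and 24.2, 24.7 and 26.5 in exercised KO libraries. Its averaged log2 change was −0.046, with a 95% interval of −0.17 to 0.083 (edgeR adjusted p = 0.671). Gbp6 stood at 13.4, 13.9 and 17.5 CPM in sedentary WT, 18.7, 16.9 and 15.3 in exercised WT, 13.96, 9.14 and 10.01 in sedentary KO and 10.4, 13.1 and 18.6 in exercised KO libraries. The groups overlapped, and its log2 change was 0.26 (SE 0.149, edgeR adjusted p = 0.309).

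**Figure D2:**
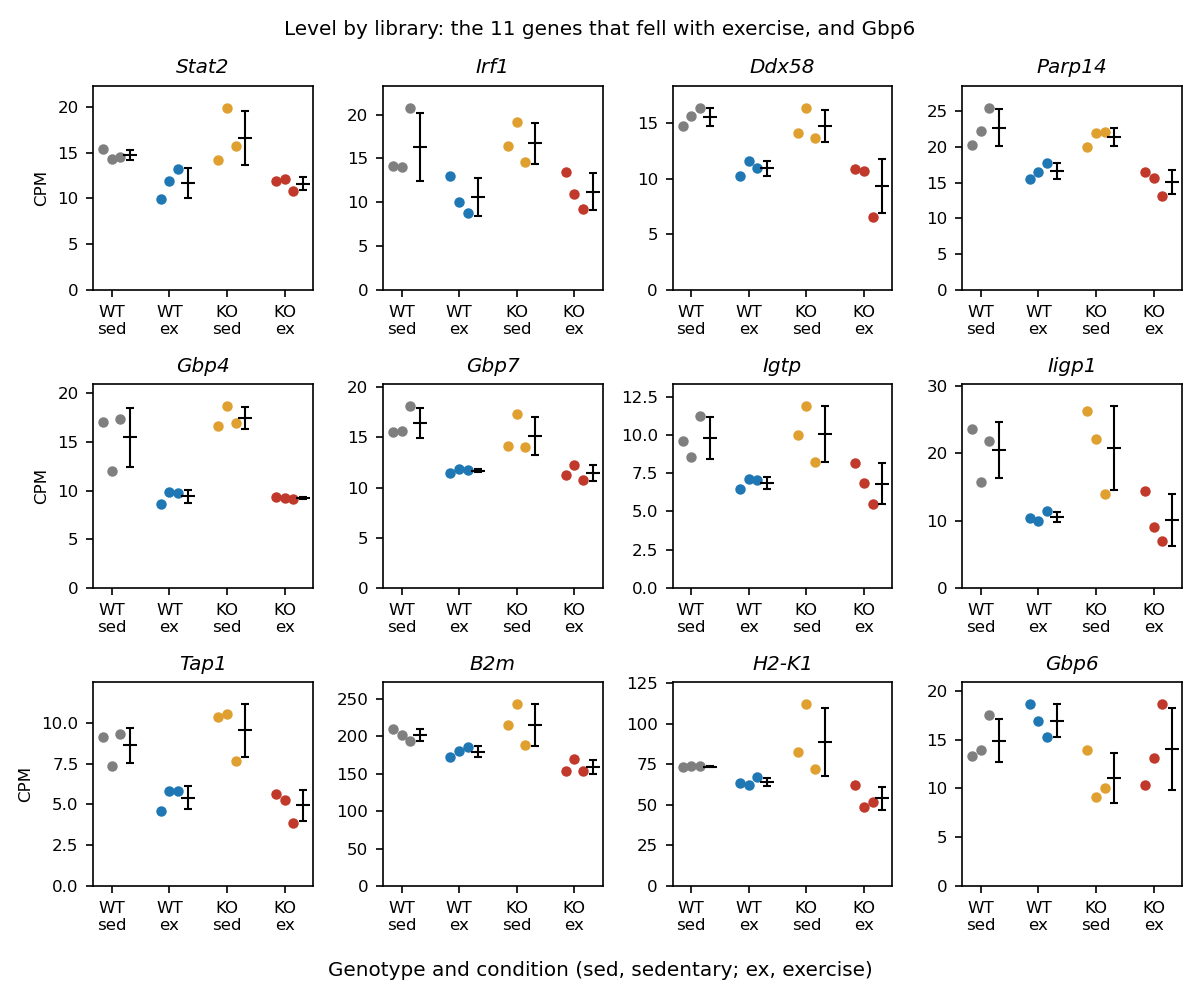
Each panel gives the CPM of 1 gene in the 12 libraries by genotype and condition (sed, sedentary; ex, exercise), with the mean and SD of each group (n = 3) beside the points in black. The 11 members that fell are lower in both exercised groups, for example Gbp4 at 8.61 to 9.88 CPM against 11.99 to 18.7, whereas Gbp6, shown for contrast, overlaps.

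In class I antigen presentation, Tap1, B2m and H2-K1 fell and all 5 members were lower. Tap1, which with Tap2 pumps peptides into the endoplasmic reticulum, lies at chr17:34187553-34197225 and has exons that overlap those of Psmb9. It stood at 9.13, 7.38 and 9.31 CPM in sedentary WT, 4.59, 5.82 and 5.81 in exercised WT, 10.4, 10.6 and 7.64 in sedentary KO and 5.66, 5.29 and 3.88 in exercised KO libraries. The conditions did not overlap, and the exercised level was 0.573 times the sedentary (log2 change −0.80, SE 0.134, edgeR adjusted p = 0.0159). B2m, at chr2:122147686-122153083, stood at 209.6, 202 and 194 CPM in sedentary WT and 172, 180.4 and 186 in exercised WT libraries. In KO it stood at 215, 243 and 188 CPM sedentary and 154, 169.5 and 153 after exercise. Its change was small, 0.810 times the sedentary level (log2 change −0.30, SE 0.0655, edgeR adjusted p = 0.0389), and the conditions did not overlap. H2-K1, at chr17:33996017-34000347, stood at 73.3, 73.9 and 74.004 CPM in sedentary WT, 63.3, 62.6 and 67.2 in exercised WT, 82.9, 112 and 71.999 in sedentary KO and 62.1, 48.9 and 51.5 in exercised KO libraries, and KO sedentary b was the highest. Its log2 change was −0.46 (SE 0.0986, edgeR adjusted p = 0.0389). H2-D1, the other heavy chain, lay just outside the threshold at −0.41 (adjusted p = 0.0572), and Tap2 had −0.28 (adjusted p = 0.176). H2-K1, H2-D1 and the other class I genes, like the Gbp and Ifit families, have close relatives whose reads the counting could have split.

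Within each genotype, 32 of the 35 members were lower after exercise in WT as well as in KO, the exceptions being Isg15, Gbp6 and Irgm1. In WT mice, 33 members were lower, with a median log2 change of −0.36, and none passed the threshold in edgeR, which called 3 of all tested genes (0.0216%). At an unadjusted p under 0.05, 13 members differed, against 9.41% of all genes; DESeq2 called 1 lower (0.425% of all genes) and limma-voom 0. The smallest p-values were those of Gbp4 (log2 −0.71, edgeR adjusted p = 0.162), Gbp7 (−0.49, adjusted p = 0.213) and Parp14 (−0.45, adjusted p = 0.256). In KO mice, 33 members were lower, with a median of −0.47, and edgeR called 0 members and 0 of all genes (0%). Here 18 members had an unadjusted p under 0.05, against 17.9% of all genes, and DESeq2 called 8 lower (1.69% of all genes) and limma-voom 0. Gbp4 (log2 −0.91, edgeR adjusted p = 0.119), H2-K1 (−0.72, adjusted p = 0.119) and Tap1 (−0.94, adjusted p = 0.121) led. All 3 exercised libraries lay below all 3 sedentary ones for 20 members in WT, against 8.68% of all genes, and for 15 in KO, against 12.5%.

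**Figure D3:**
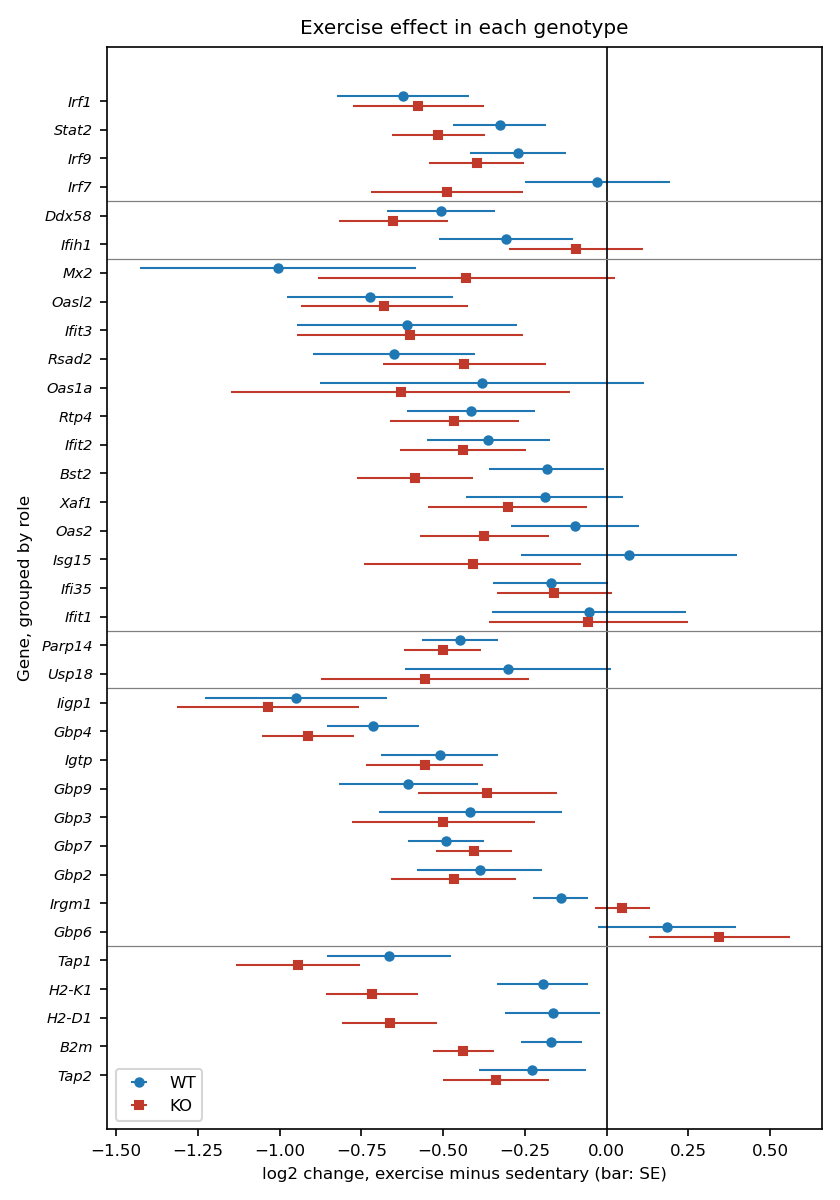
Points give the log2 change from sedentary to exercise of each tested member in WT (circles) and KO (squares), bars its standard error, with members grouped by role. Nearly all points lie left of 0 in both genotypes, with medians of −0.36 in WT and −0.47 in KO, and Gbp6 lies right of 0 in both.

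Loss of Dnmt3a in muscle was not accompanied by a called change in any member. In sedentary mice, edgeR called 0 members and 4 of all genes (0.0288%), and 1 member had an unadjusted p under 0.05, against 4.83% of all genes. That member was H2-D1, at 106, 102 and 110.2 CPM in WT and 117, 170.3 and 109 CPM in KO sedentary libraries, with a log2 difference of 0.32 (SE 0.145, edgeR adjusted p = 0.986). Library b was the highest in KO, and without it the difference was 0.092. Library b also had the highest summed markers of macrophages (299.9 CPM, against 104.8 to 163.96 in the other sedentary libraries), lymphocytes (30.6 against 4.41 to 8.51) and neutrophils (6.88 against 0.790 to 1.26), whose part in the difference was not tested. The next were Gbp6 (−0.43) and H2-K1 (0.27, or 0.071 without KO sedentary b), and the median over the members was −0.048, or 0.033 without WT sedentary c and 0.0032 without KO sedentary a. All 3 KO libraries lay below all 3 WT libraries for Mx2 and Irgm1 (4.87% of all genes) and above them for 0 members (5.51% of all genes). Mx2, annotated as a polymorphic pseudogene, was detected at 0.288 to 1.19 CPM.

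After exercise, 32 of 35 members were lower in KO than in WT, with a median of −0.14. This median was −0.021 without KO exercise c. It was −0.054 without the libraries with high Alb, a fit that kept only WT exercise a of exercised WT. EdgeR called 0 members and 3 of all genes (0.0216%), with 1 member at an unadjusted p under 0.05 (3.38% of all genes). This was Irf7, at 8.29, 6.74 and 9.89 CPM in exercised WT and 5.25, 5.62 and 3.74 in exercised KO libraries, a log2 difference of −0.77 (SE 0.231, 95% interval −1.27 to −0.27, edgeR adjusted p near 1). In sedentary libraries it stood at 7.21, 8.63 and 9.58 CPM in WT and 5.03, 6.82 and 8.70 in KO, which overlapped. Irf7 lies at chr7:141262706-141266481, and its exons overlap those of Phrf1. Together with B2m (log2 −0.18) and H2-K1 (−0.25), Irf7 was 1 of 3 members whose KO libraries all lay below the WT ones after exercise, against 3.49% of all genes. Averaged over both conditions, edgeR called 0 members and 8 of all genes (0.0576%). Unadjusted, 3 members passed p under 0.05 (4.5% of all genes): Irf7 (log2 −0.54, edgeR adjusted p = 0.78), Gbp6 (−0.35) and Ifit2 (−0.31), an RNA-binding effector.

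The effect of exercise was compared between genotypes with the interaction term, for which edgeR called 0 members and 0 of all genes (0%). At an unadjusted p under 0.05, 2 members differed, against 3.1% of all genes: H2-K1 (log2 −0.52, SE 0.197) and H2-D1 (−0.50, SE 0.206), both with a larger decrease in KO. B2m followed with −0.27 (95% interval −0.55 to 0.015). Without KO sedentary b, in which H2-K1 and H2-D1 were highest, these values were −0.32, −0.27 and −0.17. The median over the members was −0.083, or 0.056 without KO exercise c. It was 0.022 without the libraries with high Alb, where only WT exercise a remained of exercised WT. DESeq2 and limma-voom also called 0 members in the interaction and in each comparison of KO with WT.

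The wider pathway was read from 103 further genes. Of 6 interferon genes looked up, Ifnb1, Ifna2, Ifna4, Ifnk and Ifne had 0 counts in all 12 libraries, and Ifng had 1 count in 1 library. Other interferon genes were not looked up. A count of 0 allows up to 3 counts, or 0.194 to 0.225 CPM, by counting error alone. Of 8 tested genes of receptors and the signalling steps below them, 1 fell with exercise, against 1.68% of all genes. This was the type I receptor subunit Ifnar1 (20.7 to 27.1 CPM exercised, 28.2 to 33.9 sedentary, log2 −0.35, edgeR adjusted p = 0.0473). The call of Ifnar1 was lost with RLE scaling (adjusted p = 0.0515), with no filter (0.0534) and in limma-voom (0.0517). Of 12 sensors and adaptors, 0 passed in edgeR, with 4 at an unadjusted p under 0.05 against 22.8% of all genes, 1 by DESeq2 and 0 by limma-voom. Among 6 negative regulators, Socs3, an inhibitor of JAK kinases, fell from 6.13 to 10.2 CPM in sedentary to 2.52 to 5.56 CPM in exercised libraries (log2 −0.99, adjusted p = 0.0189). None of the tested genes of these lists rose by edgeR.

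Of 39 tested other interferon-induced genes, 37 were lower and 5 fell (1.68% of all genes did): Ifi47, Herc6, Sp100, Irgm2 and Cxcl9. Cxcl9, a chemokine induced by interferon gamma that attracts T cells, had the largest log2 change of these, −1.198 (SE 0.220, edgeR adjusted p = 0.0234). It stood at 3.23, 3.69 and 4.22 CPM in sedentary WT, 1.45, 1.77 and 1.66 in exercised WT, 3.65, 2.83 and 1.65 in sedentary KO and 1.52, 1.18 and 0.791 in exercised KO libraries. Of 19 other class I genes, 17 were lower and 4 fell (1.68% of all genes did): Nlrc5, Tapbp, Psmb8 and Psmb9. Nlrc5, the transcriptional activator of class I genes, stood at 2.80, 2.63 and 3.15 CPM in sedentary WT and 2.25, 1.96 and 2.42 in exercised WT libraries. In KO it stood at 4.09, 3.54 and 4.28 CPM sedentary and 2.00, 1.70 and 1.15 after exercise. Its log2 change was −0.83 (SE 0.159, edgeR adjusted p = 0.0256), without overlap. The immunoproteasome subunits Psmb8 and Psmb9 had −0.67 and −0.76 (adjusted p = 0.0382 and 0.0389), and Tapbp, which bridges class I molecules to the peptide pump, −0.27 (adjusted p = 0.0256).

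The calls of these 11 pathway genes (Ifnar1, Socs3, the 5 other induced genes and the 4 class I genes) depended on single libraries, while all 11 stayed lower in each fit run. Of the 11, 0 were called without KO sedentary b, WT exercise c or WT sedentary c. The count was 1 without KO exercise c, 2 without WT exercise a, 3 without KO sedentary a, 4 without WT sedentary a, 5 without WT sedentary b and 6 without KO exercise a. It was 8, 9 and 10 without KO sedentary c, KO exercise b and WT exercise b. Without the libraries of 2 animal numbers, 5 of the 11 were called. Over the 12 fits that each left out 1 library, Ifi47 lost its call in 11, Ifnar1, Herc6 and Psmb9 in 10, and Socs3 in 3. The share of all tested genes that fell ran from 0.191% to 3.87% over the same fits. Ifi47 was also not called with no filter (adjusted p = 0.0523) or in limma-voom (0.0521).

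In the comparisons of genotype, the pathway genes of smallest p were Ifitm2, Mavs, H2-M3 and Psme1, and none of them passed the threshold. Ifitm2, an antiviral membrane protein, had a log2 difference of 0.51 between KO and WT in sedentary mice (edgeR adjusted p = 0.684), and Mavs, the adaptor of RIG-I, had −0.35 (adjusted p = 0.986). After exercise, the nonclassical class I gene H2-M3 had −0.83 and Psme1, a proteasome activator subunit, −0.23, both with an edgeR adjusted p near 1.

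Markers of vessel and immune cells, which can express these genes, were lower after exercise as well, and their part in the results was not tested. For averaged exercise, 1.68% of all genes fell in edgeR, 4.72% in DESeq2 and 1.51% in limma-voom. An unadjusted p under 0.05 in edgeR was reached by 22.8% of all genes in either direction. All 10 macrophage markers were lower after exercise (median log2 −0.83), with 0 past the threshold in edgeR, 9 at an unadjusted p under 0.05, 7 by DESeq2 and 0 by limma-voom. Their summed level was 104.8 to 299.9 CPM in sedentary libraries and 64.3 to 130.3 CPM after exercise, and the highest was KO sedentary b. Of 10 endothelial markers, 9 were lower (median −0.40) and 5 fell (Pecam1, Cdh5, Emcn, Tie1 and Egfl7). Their sum was 962 to 1128 CPM in sedentary and 629 to 898 CPM in exercised libraries, without overlap. Of 10 lymphocyte markers, 2 passed the filter, and their sum was 4.41 to 30.6 CPM sedentary, highest in KO sedentary b, and 2.95 to 4.78 exercised. Dendritic cell markers summed to 3.36 to 6.79 CPM in sedentary and 2.59 to 4.71 CPM in exercised libraries, with 3 of 6 tested. Neutrophil markers, with 1 of 6 tested and Ly6g at 0 counts throughout, summed to 0.790 to 6.88 CPM sedentary, again highest in KO sedentary b, and 0.359 to 1.11 exercised. All 6 markers of fibro-adipogenic progenitors, connective tissue cells of muscle, were tested, and 1 fell (Pdgfra), with sums of 1415 to 2245 CPM sedentary and 759 to 1853 exercised. Erythrocyte markers summed to 166 to 539 CPM sedentary and 165 to 277 exercised, with 0 of 7 past the threshold in edgeR, 4 at an unadjusted p under 0.05, and 0 by DESeq2 and by limma-voom. Hba-a1 and Hba-a2 had the same counts in every library, so that 1 measurement enters the 7 markers and their sums 2 times. The sums were highest in KO sedentary b and c (525 and 539 CPM), while KO sedentary a (201 CPM) lay within the WT sedentary range of 166 to 229 CPM. In sedentary mice all 7 markers were higher in KO than in WT, with a median log2 difference of 1.24. EdgeR called 0, DESeq2 2 (19 of all 13886 tested genes) and limma-voom 0, and 7 had an unadjusted p under 0.05 in edgeR (4.83% of all genes). In KO mice all 7 were lower after exercise, with a median log2 change of −1.28. EdgeR called 0, DESeq2 5 (1.69% of all genes lower) and limma-voom 0, and 7 had an unadjusted p under 0.05 in edgeR (17.9% of all genes). The 8 muscle fibre markers were higher after exercise, with a median log2 change of 0.21 and 0 past the threshold in edgeR, 3 at an unadjusted p under 0.05, and 0 by DESeq2 and by limma-voom.

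**Figure D4:**
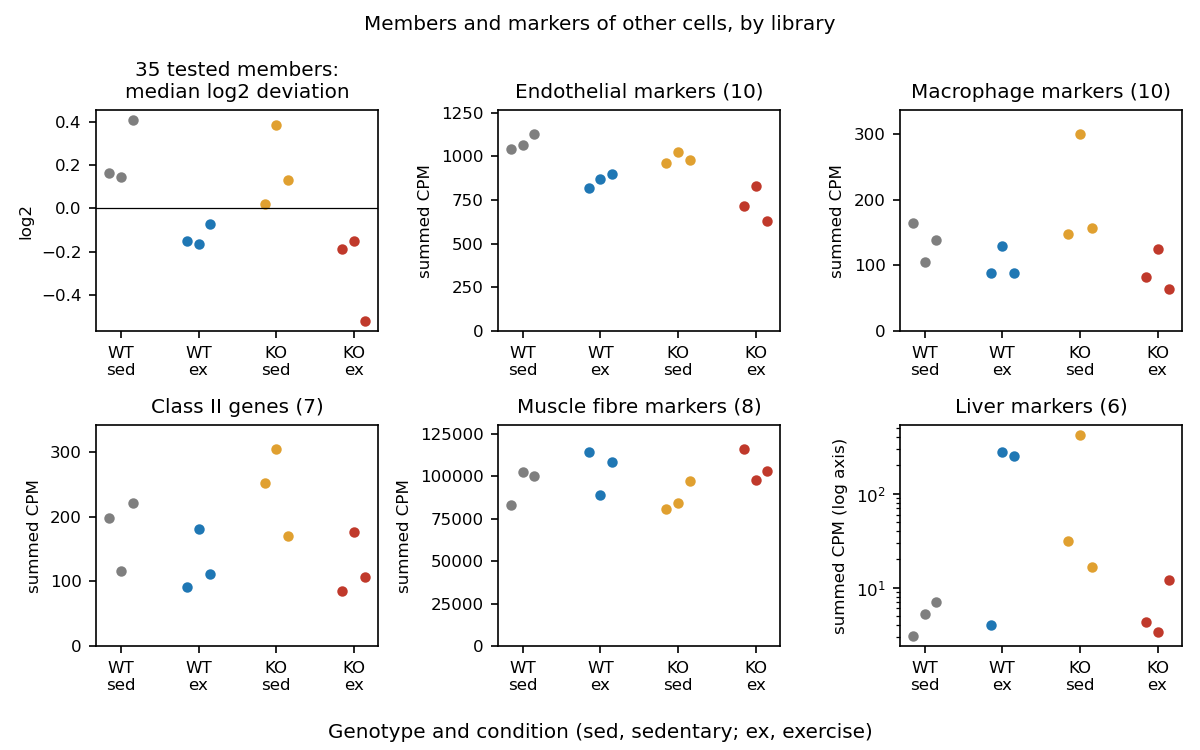
Panels give, for the 12 libraries by genotype and condition (sed, sedentary; ex, exercise), the median log2 deviation of the 35 tested members from their means and the summed CPM of markers of other cells and of class II genes; the liver panel has a log axis. Exercised libraries are below sedentary ones in the member median (−0.52 to −0.074 against 0.018 to 0.41) and in the endothelial sum (629 to 898 against 962 to 1128 CPM), and overlap them in the other panels.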

How the data were processed

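RNA-seq of soleus was analysed in 12 libraries, 3 per genotype and condition. The authors deposited 1 table with a raw count per gene and library; 12 further sample columns of that table were left out. STAR, featureCounts and mm10 are named per the submitters' processing notes, with no role; versions, annotation and strand of counting: not given in the sources used here. Columns name a genotype, a condition and animal numbers that match no sample label, so each was assigned to its group alone. No pair of libraries of the same group agreed within sampling noise (chi-square per gene 8.73 to 51.9).

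Counts were filtered with filterByExpr (minimum count 10), scaled by TMM and fitted with edgeR 4.0.16 (R 4.3.3) as 4 group means in all 12 libraries (robust glmQLFit, 8 residual degrees of freedom). The 7 contrasts were tested with glmQLFTest and adjusted by Benjamini and Hochberg over 13886 genes. Alternatives were RLE scaling, no filter, DESeq2 1.42.0, limma-voom (limma 3.58.1), the compared groups alone, leaving out each library, leaving out libraries with Alb over 100 CPM and, chosen after seeing the data, leaving out the libraries of 2 animal numbers or adding log2 Dbp as a covariate. The fit without the high-Alb libraries kept only WT exercise a of the exercised WT group. The pipeline was tested on simulated data. Members and lists were chosen with earlier results of these data known. Named with values are members called in any contrast, the 3 of smallest p per contrast, the highest of each role and the 3 lowest by CPM, and pathway genes called or among the 2 of smallest p. Oasl2, Rsad2, Bst2, Rtp4, Oas1a, Oas2, Xaf1, Isg15, Ifit1 and genes named in passing were added after their values were seen. CPM are counts scaled by the TMM library sizes. Positions and exon lengths are from GENCODE M21 on GRCm38; 15 of 37 members overlap exons of another gene.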

Additional observations from a re-analysis of the deposited data

How the results depend on the processing

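Genes called in a contrast, and those of smallest p in it, kept the sign of their log2 change there under every alternative run. The remaining members were not followed through every run. For averaged exercise, 0 members changed sign with RLE scaling or DESeq2. Without KO sedentary b, 33 of 35 tested members were lower, against 34 of 35 in the main fit. The median log2 change of the members moved by less than the spread between replicates (0.158), but near 0 its sign changed in the interaction and in sedentary KO against WT, as given there. No paired analysis was possible because the count columns carry animal numbers and cannot be tied to the replicate numbers that the sample labels share between groups. Of the members, DESeq2 called 1 for exercise in WT and 8 for exercise in KO, where edgeR called 0. Averaged over genotypes, 5 members were called without the libraries of 2 animal numbers. Of all genes, DESeq2 called 19 (KO against WT, sedentary), 9 (exercised), 122 (exercise in WT), 340 (exercise in KO), 22 (interaction), 33 (KO against WT, averaged) and 1012 (exercise, averaged), against 4, 3, 3, 0, 0, 8 and 322 in edgeR. Without the high-Alb libraries these were 2 (KO against WT, sedentary), 1 (exercised), 11 (exercise in WT), 2 (KO against WT, averaged) and 122 (exercise, averaged). Without the libraries of 2 animal numbers they were 0 (exercise in WT), 6 (exercise in KO) and 123 (exercise, averaged), and with Dbp as a covariate 0 (exercise in WT) and 805 (exercise, averaged). With the compared groups alone they were 1 (KO against WT, exercised), 6 (exercise in WT) and 7 (exercise in KO), and with limma-voom 1 (exercise in WT). Leaving out 1 library gave 1 to 5 genes (KO against WT, sedentary), 1 to 4 (exercised), 0 to 8 (exercise in WT), 0 to 4 (exercise in KO), 4 to 10 (KO against WT, averaged) and 45 to 697 (exercise, averaged), and 0 to 1, 0 to 1 and 1 to 10 members for exercise in WT, in KO and averaged. The causes were not tested. Members called for averaged exercise numbered 8 with RLE scaling (1.60% of all genes fell), 9 with no filter (1.09%) and 14 with the Dbp covariate (3.98%). Gbp4 was called for averaged exercise in every fit that kept 2 or more libraries per group. Counts were low for some effectors, which limits their precision: Isg15, Oas1a and Mx2 had 267, 116 and 97 counts in all.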

Other observations

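Class II genes, which present peptides to CD4 T cells and are made mainly by macrophages, dendritic cells and B cells, were also measured. All 7 tested were lower after exercise averaged over both genotypes, with a median log2 change of −0.75. None passed the threshold in edgeR, and 7 had an unadjusted p under 0.05 (22.8% of all genes). DESeq2 called 3 lower (4.72% of all genes) and limma-voom 0. Ciita, their master activator, had a log2 change of −1.02 (edgeR adjusted p = 0.0683). Cd74, the invariant chain, was at 61.4 to 162.6 CPM in sedentary libraries and at 44.7 to 97.6 CPM after exercise, with overlap (log2 −0.73, adjusted p = 0.166). H2-Aa and H2-Ab1 had −0.75 and −0.73 and overlapped as well.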
